A study of Mus musculus with 2 samples.

Results

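C1q macrophages outside the cell cycle were followed in single-cell RNA sequencing of CT26 tumors from untreated (UT) and BUP-Gel-treated mice. They were 1657 of the 13939 barcodes kept after quality control, of 14777 barcodes in all, 1154 of them from UT and 503 from BUP-Gel. Members were selected on measured values, and a barcode was taken when C1qa, C1qb and C1qc together reached 15 unique molecular identifiers (UMIs) per 10000 UMIs of that barcode (P10k). It also had to hold at most 1 UMI of Cd3d, Cd3e and Cd3g, under 100 P10k of S100a8 and S100a9, and under 10 P10k of the 6 cell cycle genes Mki67, Top2a, Birc5, Ube2c, Pclaf and Nusap1. Barcodes with Ctsk, Mmp9 and Atp6v0d2 together were left out. Levels of these genes are therefore given as a description of the selection.

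C1q is the recognition molecule of the classical complement pathway, built from A, B and C chains that C1qa, C1qb and C1qc encode. In mice these chains are made mostly by tissue macrophages rather than by the liver. In tumors, macrophages that carry C1q are a differentiated population with scavenger receptors, lysosomal proteases and genes of apoptotic cell uptake, and they stand apart from inflammatory macrophages that make IL-1 and neutrophil-attracting chemokines. They can also present peptides to CD4+ T cells on MHC class II.

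Tumors came from CT26, a colon carcinoma line of the mouse, implanted under the skin of young adult male BALB/c mice. BUP-Gel is a hydrogel loaded with the local anesthetic bupivacaine (BUP), injected once near the tumor, and the UT mice received nothing, so no empty gel stands beside the drug. Live CD45+ and CD45- cells were sorted from 3 tumors a group and pooled into 1 library a group, at 3 to 1 by the study's methods and at 4 to 1 by the sample labels. The comparison asks how macrophages of a tumor treated with the gel differ in number and in expressed genes from those of an untreated tumor.

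With 1 library a condition there was no replicate, and no test between UT and BUP-Gel was possible. A gene's level is its UMI sum in a cell class, scaled to 1000000 UMIs of all genes there (CPM), and a log2 ratio is BUP-Gel over UT. All intervals are 95%, and they are exact except for differences between shares. Those were combined from the exact intervals of both shares, which is an approximation. The intervals cover counting error only, not spread among cells, animals, sorting or library preparation. The kept barcodes had medians of 8430 (UT) and 10420.0 (BUP-Gel) UMIs, and all barcodes together held 83228442 and 89918925 UMIs. CD45 transcripts (Ptprc) were seen in 74.1% and 56.2% of them, so the immune part of the mix differed between the libraries. The libraries had 76 barcode sequences in common, and 2 of these were C1q macrophages in both.

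The C1q macrophages held a median of 12362 UMIs in UT and 11092 in BUP-Gel, and a median of 3594 and 3360.0 genes. Their C1q level had a median of 98.6 P10k in UT and 91.3 P10k in BUP-Gel, with 80% of the UT cells between 23.1 and 195 P10k. Most were far above the limit, since the median C1q macrophage held 130.5 C1q UMIs in UT and 100 in BUP-Gel. In 90 UT and 23 BUP-Gel cells the call rested on 3 or fewer C1q UMIs. Of 1609 UT and 825 BUP-Gel barcodes at the C1q limit, 1424 and 621 were left after the limit on Cd3 UMIs and 1356 and 558 after that on S100a8 and S100a9, and 200 and 55 cells were then set aside as cycling.

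Cells near the limit were shallower. Just inside it, at 15 to 20 P10k, were 90 UT and 31 BUP-Gel cells with medians of 2176 and 3056 UMIs, Ms4a7 at 203 and 221 CPM and Mrc1 at 682 and 582 CPM. Just outside, at 10 to 15 P10k, were 128 and 45 barcodes that met the other limits of the rule. They had medians of 1803 and 2427 UMIs, Ms4a7 at 192 and 77.4 CPM and Mrc1 at 791 and 178 CPM. No limit on phagocyte genes was set for them, and Cd14, Csf1r, Cd68 and Adgre1 together had medians of 11.7 and 11.0 P10k. T cells, which do not make C1q, gave the background level, and 58.7% of UT and 35.2% of BUP-Gel T cells had a C1q UMI. Of these T cells, 3 of 513 in UT and 3 of 758 in BUP-Gel reached the limit, or 0.58% (0.121 to 1.70) and 0.396% (0.0817 to 1.15). They had been taken with at most 1 UMI of Cd14, Csf1r, Cd68 and Adgre1 together. That choice left out T cells with more macrophage RNA, so these shares may be lower than those of all barcodes with Cd3.

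C1q macrophages made up a smaller part of the BUP-Gel library. They were 16.1% (15.3 to 17.0) of kept UT barcodes and 7.42% (6.81 to 8.07) of kept BUP-Gel barcodes, a difference of -8.69 points (-9.75 to -7.62). Among barcodes with a Ptprc UMI the shares were 19.0% and 11.9%, a difference of -7.11 points (-8.59 to -5.61). Phagocytes below the C1q limit (C1q-low phagocytes, 1912 and 1013 cells) were also a smaller part, at 26.7% and 14.95% of kept barcodes. Within mononuclear phagocytes the C1q macrophages were 35.3% (33.7 to 37.0) in UT and 32.0% (29.7 to 34.4) in BUP-Gel. That difference of -3.32 points (-6.16 to -0.43) became -2.79 (-5.76 to 0.22) with a stricter cell filter and -2.49 (-5.35 to 0.41) at an equal depth of 2000 UMIs, both with intervals that hold 0. How far the sorted mix set the shares of kept barcodes was not tested.

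Cells in cycle were also fewer among C1q macrophages of the BUP-Gel library. Cycling cells were 14.8% (12.9 to 16.8) of C1q macrophages in UT and 9.86% (7.51 to 12.6) in BUP-Gel, a difference of -4.91 points (-7.998 to -1.58). With the limit on cell cycle genes at 20 P10k the difference was -1.48 points (-3.68 to 1.01).

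**Figure D1:**
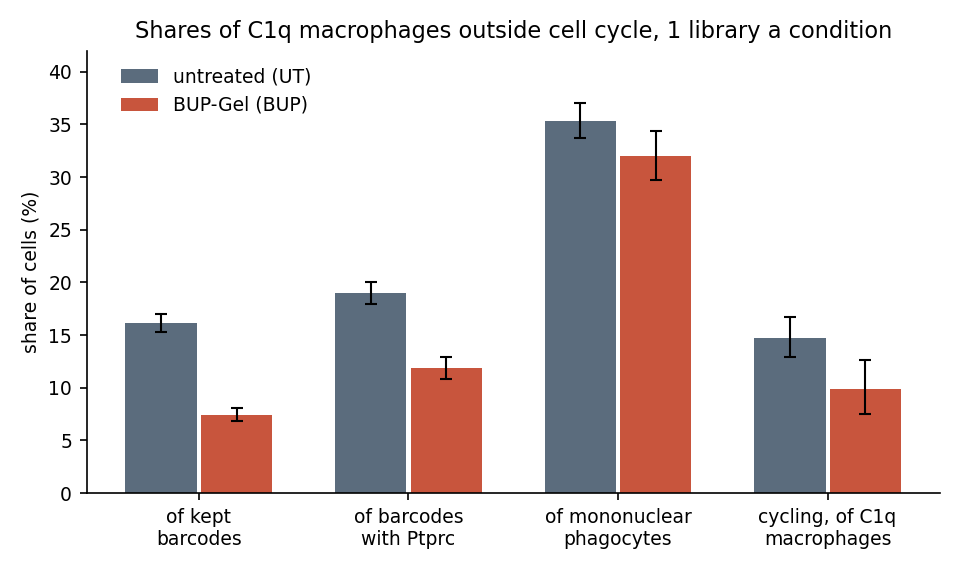
Share of C1q macrophages outside the cell cycle among kept barcodes, barcodes with a Ptprc UMI and mononuclear phagocytes, and share of cycling cells among C1q macrophages (percent of cells). Bars are the UT and the BUP-Gel library, 1 a condition, and lines are 95% exact binomial intervals of counting error; the gap between the bars is wide for kept barcodes (16.1% and 7.42%) and narrow within mononuclear phagocytes (35.3% and 32.0%).

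The cells were next described by 3 markers of the population that the rule did not use. These markers were named with earlier results of these data known, so their levels are no independent check of identity. Ms4a7, a membrane protein of the CD20 family found on mature macrophages, was at 535 CPM in UT versus 501 CPM in BUP-Gel, against 124 and 69.3 CPM in C1q-low phagocytes. Mrc1, the mannose receptor CD206, reached 1182 and 791 CPM, compared with 353 and 235 CPM, and Ccl8, a chemokine of resident-type macrophages, was at 1318 and 1118 CPM against 110.2 and 41.7 CPM. All 3 were higher in the C1q macrophages of both libraries. Ms4a7 UMIs were present in 79.7% (UT) and 80.5% (BUP-Gel) of C1q macrophages and in 4.09% and 1.98% of T cells, whose median depths were 6866 and 6638 UMIs. The name macrophage rests on this description, and maturity as such was not measured.

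Beside C1q-low phagocytes, 182 of 7137 genes with enough UMIs were at 2 times their level or more in the C1q macrophages of both libraries (2.55%), and 153 were lower by the same measure (2.14%). The classes differed in depth (medians of 12362 and 7051 UMIs in UT), and at 2000 UMIs a cell the counts were 39 and 104 of 2220 genes. Both classes were set by expression, so these counts and levels describe the cells and are no test. Of 13 resident macrophage genes 8 were higher and 1 was lower. Gas6, the bridge between dying cells and the receptors Axl and Mertk, had log2 ratios of C1q macrophages over C1q-low phagocytes of 4.597 in UT and 5.74 in BUP-Gel. Cbr2, a carbonyl reductase, at 3.495 and 4.64, and Folr2, the folate receptor beta, at 3.03 and 3.68, were high in the same way. Outside the list, Siglec1, the sialic acid receptor CD169, stood at 4.20 and 4.54. The lower gene was Ccl24, an eosinophil-attracting chemokine, with log2 ratios of -1.61 and -1.55.

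Outside the resident list the genes that most marked C1q macrophages, after C1q itself, included Ch25h, which makes 25-hydroxycholesterol, with log2 ratios of 3.33 in UT and 3.11 in BUP-Gel. Cd72, known from B cells, was at 2.74 and 3.67, and Lyz1, a lysozyme, at 2.70 and 2.53. Frmd4b and Psd3 completed this set, beside Gzmf, which is taken up with the other granzymes. The complement component C4b was also higher, at 3.94 and 3.48, as were Lgmn, the lysosomal protease legumain, at 1.39 and 1.597, and the metalloprotease inhibitor Timp2 at 2.59 and 2.45. Plau, the urokinase that activates plasmin, stood at 2.31 and 1.57.

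Inflammatory and monocyte genes lay on the other side. Of 20 inflammatory genes none was at 2 times the C1q-low level and 12 were lower by that measure, and of 9 monocyte genes 5 were lower. Inhba, the activin A chain, had log2 ratios of -2.85 in UT and -2.40 in BUP-Gel, Cxcl3 of -2.60 and -2.19, and Il1b of -1.77 and -1.50. The monocyte matrix gene Vcan stood at -2.29 and -1.92 and the monocyte chemokine receptor Ccr2 at -1.597 and -1.15. None of the 8 MHC class II genes passed the fold on either side, and H2-Ab1 was on opposite sides of 0 in the libraries, at -0.56 in UT and 0.43 in BUP-Gel.

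**Figure D2:**
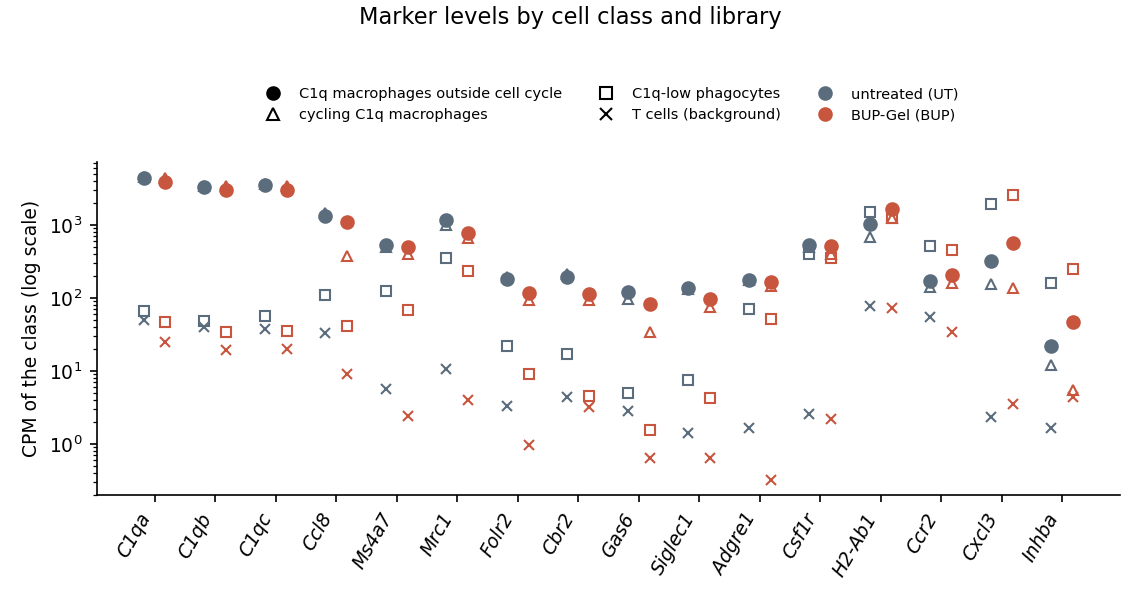
Levels of 16 genes (CPM, log scale) in C1q macrophages outside the cell cycle (filled circles), cycling C1q macrophages (triangles), C1q-low phagocytes (squares) and T cells as background (crosses), with UT in grey and BUP-Gel in red. C1qa to Adgre1 are higher in C1q macrophages than in C1q-low phagocytes of both libraries, Ccr2, Cxcl3 and Inhba are lower, and H2-Ab1 is above the C1q-low level in BUP-Gel only.

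Between the conditions, 159 of the 8456 genes that reached 200 UMIs in the libraries together were at 1.5 times their UT level or more in BUP-Gel C1q macrophages (1.88%), and 96 were at 1.5 times or more in UT (1.14%). The median log2 ratio over all these genes was -0.02. When each cell was given equal weight, 176 genes were higher and 245 lower, so the split between the directions depends on the weight of the cells. Fewer cells of a type and less RNA a cell cannot be told apart in such sums. At 2000 UMIs a cell 29 genes were higher and 37 lower, of 2499 with enough UMIs. Lists of genes are read against these shares and against the median of all genes.

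**Figure D3:**
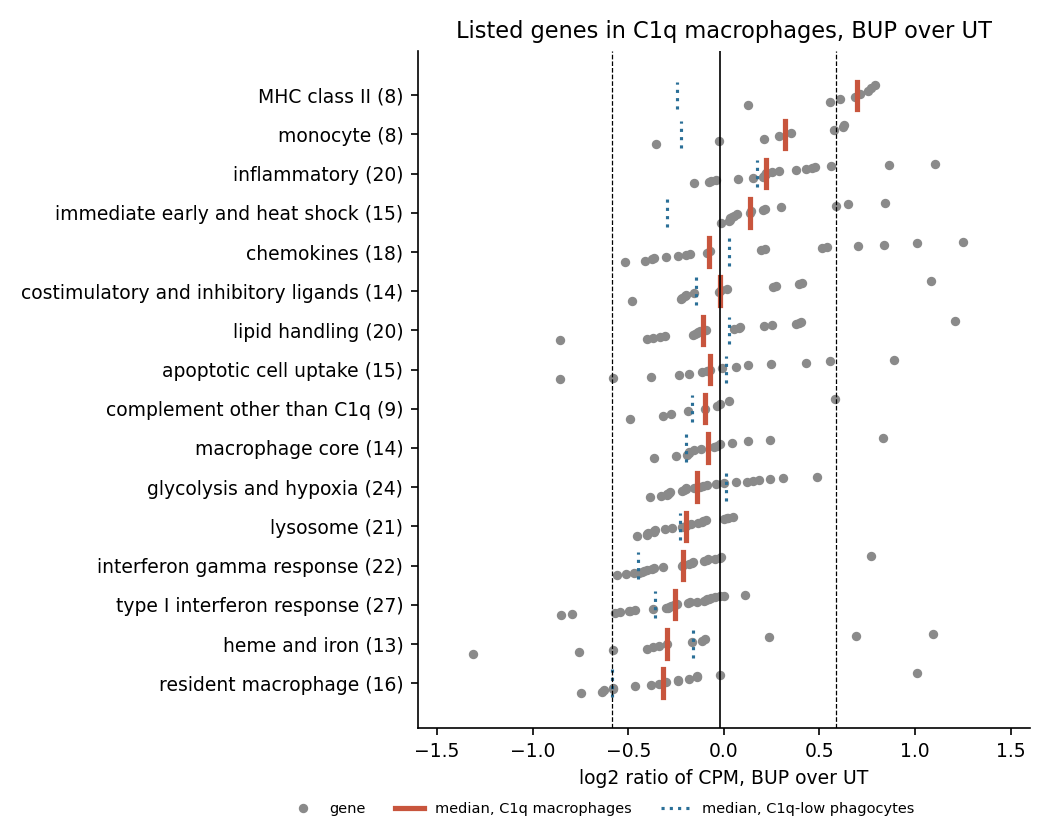
Log2 ratio of CPM, BUP-Gel over UT, for each gene with enough UMIs in C1q macrophages in 16 of the lists (points; number of genes in brackets). Red bars are the list medians, dotted blue bars the medians of the same genes in C1q-low phagocytes, the solid line the median of all genes (-0.02) and the dashed lines 1.5-fold; of the plotted lists MHC class II has the highest median (0.70, against -0.24 in C1q-low phagocytes) and the resident macrophage list the lowest (-0.32).

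MHC class II had the highest median of the plotted lists. All 8 of its tested genes were higher in BUP-Gel, 6 of them by 1.5 times or more beside the 1.88% of all genes, and the list median was 0.70. H2-Aa, the alpha chain of I-A, was at 1232 CPM in UT versus 1979.7 CPM in BUP-Gel, a log2 ratio of 0.68 (0.65 to 0.72). H2-Ab1, its beta chain, was at 1027 and 1684 CPM, a ratio of 0.71 (0.68 to 0.75), and H2-Eb1, the beta chain of I-E, at 762 and 1316 CPM, a ratio of 0.79 (0.75 to 0.83). Cd74, the invariant chain that guards the groove until a peptide is loaded, was at 3897 and 5944 CPM, a ratio of 0.61 (0.59 to 0.63). The peptide-binding chains and their chaperone were thus higher by similar factors.

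The genes of peptide loading and of control were lower in level and less even. H2-DMb1, a beta chain of the peptide exchange factor H2-M, was at 100.5 and 169 CPM (log2 ratio 0.75, 0.64 to 0.86), and H2-DMb2, the other beta chain, at 85.2 and 126 CPM (0.56, 0.43 to 0.69). Their partner H2-DMa was at 369 and 403 CPM, a smaller ratio of 0.13 (0.06 to 0.19). Ciita, the coactivator that switches on class II genes, was sparse, at 15.4 and 26.2 CPM (0.77, 0.48 to 1.06). H2-DMb1 and H2-DMb2 are near-identical copies, so the split of UMIs between them is uncertain.

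Class II promoters hold a conserved Y box, which the factor NF-Y binds, beside the X box that recruits the RFX complex. The 170 bases before the start of the Ensembl canonical transcript are shown for 4 class II genes that were higher in BUP-Gel, from GRCm39 (C57BL/6J, whereas BALB/c mice carry another H2 haplotype), 5′ to 3′ on the strand of the gene, with a CTGATTGG match in capitals.
H2-Aa (chr17:34506798-34506967, minus strand): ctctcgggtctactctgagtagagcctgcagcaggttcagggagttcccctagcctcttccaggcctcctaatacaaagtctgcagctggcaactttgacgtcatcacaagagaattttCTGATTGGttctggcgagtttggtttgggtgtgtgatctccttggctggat
H2-Ab1 (chr17:34482013-34482182, plus strand): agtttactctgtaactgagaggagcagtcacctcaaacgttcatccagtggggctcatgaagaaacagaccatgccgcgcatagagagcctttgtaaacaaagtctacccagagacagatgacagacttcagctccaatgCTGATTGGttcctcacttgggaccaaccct
H2-Eb1 (chr17:34524643-34524812, plus strand): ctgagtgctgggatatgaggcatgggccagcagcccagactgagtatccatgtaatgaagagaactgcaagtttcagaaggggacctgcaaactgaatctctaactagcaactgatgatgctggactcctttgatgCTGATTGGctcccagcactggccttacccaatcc
H2-DMb1 (chr17:34371876-34372045, plus strand): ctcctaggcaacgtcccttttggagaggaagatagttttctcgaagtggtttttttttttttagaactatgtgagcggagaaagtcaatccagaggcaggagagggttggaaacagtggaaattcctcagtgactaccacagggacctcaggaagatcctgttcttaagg
H2-Aa, H2-Ab1 and H2-Eb1 each held CTGATTGG once, with its first base 51, 30 and 34 bases before the start, and the H2-DMb1 window held none. The annotated genes H2-Ab1 and H2-Eb1 begin further upstream, at 34476663 and 34504236, so their windows lie inside the span of other transcripts. CTGATTGG or its reverse complement CCAATCAG was found in 905 of 21757 windows of the same length before canonical starts of protein-coding genes (4.16%), and the shorter CCAAT that lies inside it, on either strand, in 29.6%. A match describes the letters of the window and shows no binding.

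The class II difference was also seen cell by cell. The summed level of H2-Aa, H2-Ab1, H2-Eb1 and Cd74 had a median of 20.7 P10k in UT and 66.4 P10k in BUP-Gel C1q macrophages, with quartiles of 4.72 and 76.0 P10k in UT and 14.7 and 181 P10k in BUP-Gel. Cells below 10 P10k were 36.3% (33.5 to 39.2) of UT and 20.9% (17.4 to 24.7) of BUP-Gel C1q macrophages, and cells at 150 P10k or more 16.4% (14.3 to 18.6) and 29.4% (25.5 to 33.6). The ranges overlapped widely, and cells without and with high class II were present in both libraries. H2-Eb1 UMIs were present in 55.5% (UT) and 71.6% (BUP-Gel) of C1q macrophages, and in 11.9% and 8.84% of T cells. After thinning to 2000 UMIs a cell these shares were 36.9% and 56.5% in C1q macrophages (131 and 41 shallower cells were left out) and 4.70% and 3.17% in T cells.

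In C1q-low phagocytes the class II level differed little between the libraries. Barcodes with a UMI of the dendritic cell genes Flt3, Xcr1 or Ccr7 had been left out of the C1q-low class, but not of the C1q macrophages. Their median was 14.7 P10k in UT and 14.1 P10k in BUP-Gel, and the 8 genes had a median log2 ratio of -0.24. In cycling C1q macrophages it was 0.73, with medians of 13.4 and 38.3 P10k a cell. H2-Aa had a log2 ratio of -0.24 in C1q-low and 0.82 in cycling cells, beside 0.68 in C1q macrophages outside the cell cycle. With 1 library a condition the gap between the classes was not tested. Over all C1q macrophages the 4 class II genes summed to 6918 CPM in UT and 10924 CPM in BUP-Gel, a log2 ratio of 0.66 (0.65 to 0.67), and every alternative gave a ratio between 0.62 and 0.77. Dendritic cell markers, 9 genes led here by Ccr7 and Fscn1, were at 34.01 and 82.6 CPM in C1q macrophages, with 52.8% and 60.04% of their UMIs in 5 cells, and without cells that held any such UMI the ratio was 0.62.

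**Figure D4:**
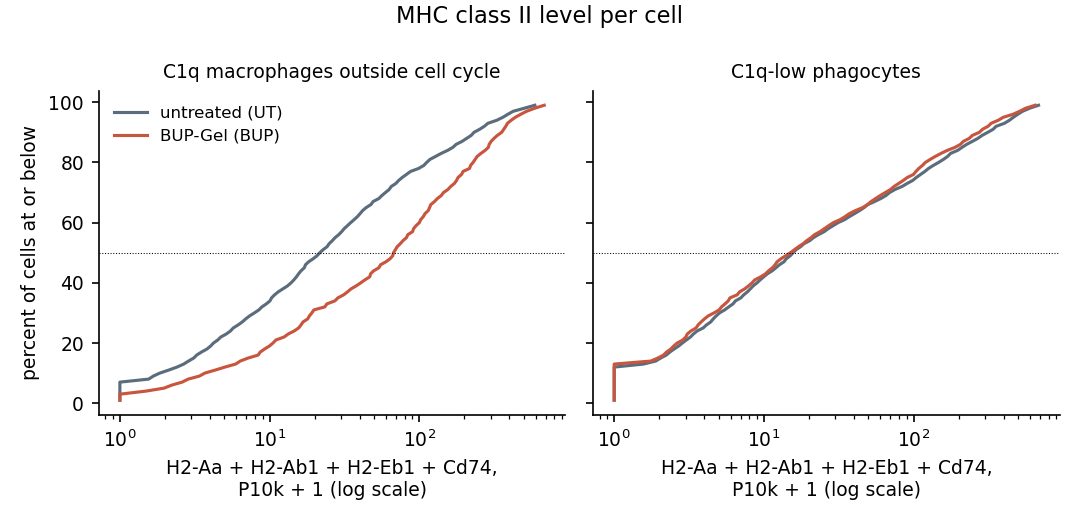
Percent of cells at or below each level of H2-Aa, H2-Ab1, H2-Eb1 and Cd74 together (P10k plus 1, log scale) in C1q macrophages outside the cell cycle (left) and C1q-low phagocytes (right), UT in grey and BUP-Gel in red, with a dotted line at the median cell. The curves are apart in C1q macrophages (medians 20.7 and 66.4 P10k) and nearly coincide in C1q-low phagocytes (14.7 and 14.1 P10k).

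The shift was next followed over the C1q level within the population. From 15 to 30 P10k of C1q (164 UT and 71 BUP-Gel cells) the class II sum was 8873 CPM in UT and 7653 CPM in BUP-Gel, a log2 ratio of -0.21. From 30 to 60 P10k (171 and 90 cells) it was 0.73, from 60 to 120 P10k (347 and 157 cells) 0.75, and at 120 P10k or more (472 and 185 cells) 0.81. The difference was thus seen in each range above 30 P10k and not in the range nearest the limit, where depth also differed (medians of 2940.0 and 7778 UMIs) and dendritic cell markers stood at 14.9 and 202 CPM. From 30 to 60 P10k they were at 28.2 and 219 CPM. In the ranges from 60 P10k, where the class II difference was as large, these markers were lower in BUP-Gel, at 66.2 and 39.3 CPM and at 12.3 and 5.37 CPM.

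Other genes followed the C1q level in their own ways. Cx3cr1, the fractalkine receptor, had a UMI in 24.9% (UT) and 35.8% (BUP-Gel) of C1q macrophages and in 15.6% and 17.9% of T cells. It was at 46.1 CPM in UT versus 82.1 CPM in BUP-Gel, a log2 ratio of 0.83 (0.67 to 0.9976), with ratios of 0.09, 0.43, 0.89 and 1.22 from the lowest to the highest C1q range. Apoe, the lipid carrier, had ratios of -0.22, -0.05, 0.27 and 0.51 in the same order, and Cd36, a scavenger receptor for oxidized lipids, of -0.16, -0.81, -1.23 and -1.53. For these 3 genes the libraries were most apart where C1q was highest, and Apoe was on the lower side in BUP-Gel near the C1q limit. Hmox1 ran the other way, with ratios of -1.04, -1.04, -1.10 and -0.23.

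**Figure D5:**
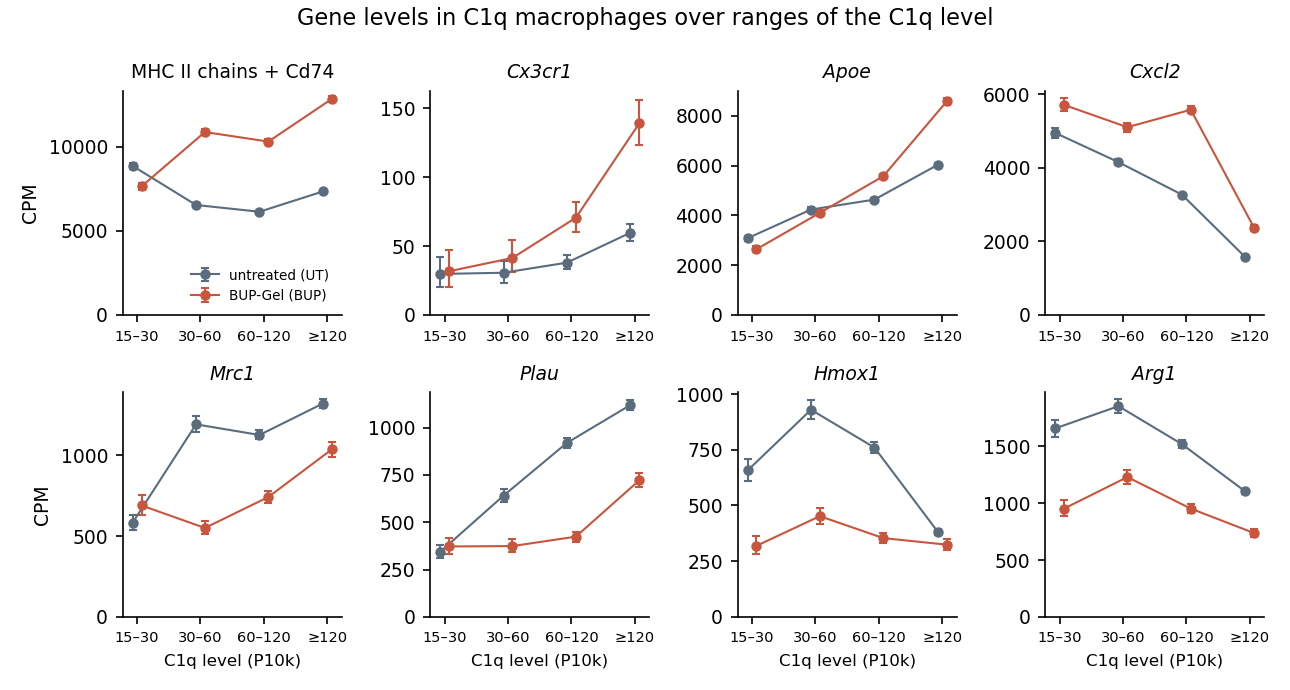
CPM of the class II sum (H2-Aa, H2-Ab1, H2-Eb1 and Cd74) and of 7 genes in C1q macrophages over 4 ranges of the C1q level (P10k), UT in grey and BUP-Gel in red, with 95% exact Poisson intervals of counting error. Class II is higher in BUP-Gel in the upper 3 ranges and Cxcl2 in all 4, Cx3cr1 and Apoe part most at 120 P10k or more, Arg1 is lower in all 4 ranges, and Mrc1 and Plau are lower from 30 P10k up.

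C1q itself differed little, as the rule keeps it high. C1qa was at 4381 CPM in UT versus 3926 CPM in BUP-Gel, a log2 ratio of -0.16, C1qb at 3361 and 3014 CPM (-0.16) and C1qc at 3559.5 and 2984 CPM (-0.25). With equal weight of cells the ratios of C1qa and C1qb were 0.01 and 0.00, so no direction is given for them. The genes lie side by side on chromosome 4 of GRCm39, C1qb (ENSMUSG00000036905) from 136606009 to 136613511, C1qc (ENSMUSG00000036896) from 136616466 to 136620376 and C1qa (ENSMUSG00000036887) from 136623223 to 136626161, all on the minus strand.

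Most resident macrophage genes were lower in BUP-Gel. The median log2 ratio of its 16 tested genes was -0.32, and all of them but Ccl24 were on the lower side, 3 by 1.5 times or more beside 1.14% of all genes, while Ccl24 was higher by that measure. Cbr2 was at 193 CPM in UT versus 115 CPM in BUP-Gel, a log2 ratio of -0.74 (-0.86 to -0.63), and Folr2 at 180.3 and 117 CPM, a ratio of -0.63 (-0.74 to -0.51). Lyve1, the remaining gene past the fold, was at 33.7 and 21.7 CPM with 37.7% and 74.3% of its UMIs in 5 cells, and its ratio of -0.64 turned to 0.22 at an equal depth of 2000 UMIs. Lyve1 encodes a hyaluronan receptor of vessel-associated macrophages.

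Mrc1 (ENSMUSG00000026712, chromosome 2, 14234151 to 14336926) was just short of the fold, at 1182 CPM in UT versus 791 CPM in BUP-Gel, a log2 ratio of -0.58 (-0.62 to -0.53). A UMI of it was seen in 86.7% and 85.5% of the cells and in 8.38% and 2.64% of T cells. At 2000 UMIs a cell these shares were 74.9% and 62.6% of C1q macrophages and 2.25% and 1.10% of T cells, so at equal depth a UMI of the mannose receptor was seen in fewer BUP-Gel cells. Stab1, a scavenger receptor that clears dying cells, was at 329 and 253 CPM (-0.38, -0.46 to -0.30), Siglec1, outside the list, at 138 and 98.8 CPM (-0.48, -0.61 to -0.35) and Gas6 at 123 and 82.1 CPM (-0.58, -0.72 to -0.44). In C1q-low phagocytes the same list had a median of -0.58 and in cycling C1q macrophages of -0.59, so it was lower in BUP-Gel in all 3 classes. At 2000 UMIs a cell the median in C1q macrophages was -0.12. The summed list had ratios of 0.17, -0.51, -0.38 and -0.03 from the lowest to the highest C1q range. Its sum was thus clearly lower only between 30 and 120 P10k, but single genes departed from the sum. In the highest range Mrc1 (-0.35), Folr2 (-0.34), Gas6 (-0.38) and Cbr2 (-0.17) were still lower in BUP-Gel. Ccl8 (0.13), Lyve1 (0.28) and Ccl24 (1.18) were on the higher side there. In the lowest range the ratio of Ccl8 was 2.51.

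The resident genes and class II were not spread evenly over the cells. In UT, Mrc1 reached 1447 CPM in cells below 10 P10k of class II and 746 CPM in cells at 150 P10k or more, and in BUP-Gel 1124 and 633 CPM. Within each of the 4 class II ranges Mrc1 was still lower in BUP-Gel, with log2 ratios of -0.37, -0.63, -0.45 and -0.24 from low to high. Folr2 was lower in the first 3 ranges, at -0.73, -0.74 and -0.31, and at 0.14 in the highest. Cells rich in class II held less Mrc1 in both libraries.

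Lysosomal genes were lower as a list, by less than the fold. The median log2 ratio over 21 genes was -0.20, none was past 1.5 times, and 16 had intervals wholly below 0. The cysteine proteases Ctsb, at 4439 CPM in UT versus 3362 CPM in BUP-Gel (-0.40), and Ctsl, at 2245 and 1638 CPM (-0.46), were the abundant members with the lowest ratios, beside Lgmn at 2117 and 1602 CPM (-0.40) and progranulin, Grn, at 2244 and 1703 CPM (-0.40). C1q-low phagocytes had a similar median, -0.23.

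Complement genes other than C1q and receptors that sense complement and antibody differed little. None of 9 complement genes and none of 5 Fc receptor genes was past the fold, with medians of -0.10 and -0.25. C3, the central component, was at 59.9 CPM in UT versus 89.5 CPM in BUP-Gel, a log2 ratio of 0.58 (0.43 to 0.73), and the receptor for its fragment C3a, C3ar1, at 527 and 376 CPM, a ratio of -0.49 (-0.55 to -0.42) that was -0.13 at equal depth. Barcodes without Ptprc of 10000 UMIs or more held a C3 UMI in 32.6% and 46.4%. The inhibitory Fc receptor Fcgr2b was at 1930.2 and 1650.3 CPM (-0.23). C3 and C3ar1 lay on opposite sides in the full sums, neither past the fold. The part of RNA from other cells in the C3 ratio was not tested.

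Genes of lipid handling and of apoptotic cell uptake had medians of -0.11 and -0.07, with 1 gene past the fold on each side in both lists. Cd36, which both lists hold, was the low one, at 104 CPM in UT versus 57.2 CPM in BUP-Gel, a log2 ratio of -0.86 (-1.02 to -0.69), while in C1q-low phagocytes it was at 0.19. Gpnmb, a lysosomal glycoprotein of lipid-laden macrophages, was sparse, at 10.3 and 23.9 CPM (1.21) with 40.6% and 61.0% of its UMIs in 5 cells. Apoe was at 5089 and 5895 CPM (0.21, 0.19 to 0.23) and Trem2, a lipid-sensing receptor, at 465 and 369 CPM (-0.33, -0.40 to -0.27), so lipid genes lay on both sides. Of the uptake receptors, Mertk was at 43.5 and 47.4 CPM (0.12, -0.08 to 0.32) and Axl at 42.9 and 63.1 CPM (0.56, 0.38 to 0.74). Mfge8, a bridge to dying cells, was the high one at 9.94 and 18.4 CPM (0.89). Barcodes without Ptprc of 10000 UMIs or more held an Axl UMI in 93.95% and 91.1% and an Mfge8 UMI in 84.3% and 86.6%. The part of such RNA in these ratios was not tested.

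Chemokines lay on both sides. Of 18 genes 4 were past the fold on the higher side and none on the lower, with a list median of -0.08. The ligands of CXCR2, which draw neutrophils, were higher in BUP-Gel, with Cxcl2 at 2750.4 CPM in UT versus 4478 CPM in BUP-Gel (0.70, 0.68 to 0.72), Cxcl3 at 322 and 577 CPM (0.84, 0.78 to 0.90) and Cxcl1 at 412 and 587 CPM (0.51, 0.45 to 0.57). A Cxcl1 UMI was also seen in 73.2% and 77.5% of barcodes without Ptprc of 10000 UMIs or more. The ligands of CCR2, which draw monocytes, were lower in the full sums, with Ccl2 at 4541 and 3408 CPM (-0.41, -0.44 to -0.39) and Ccl7 at 3267 and 2286 CPM (-0.52, -0.54 to -0.49). Over the class II ranges, from low to high, the ratios were -0.33, -0.43, -0.23 and 0.29 for Ccl2. For Ccl7 they were -0.32, -0.44, -0.52 and 0.0007. In cells at 15 to 30 P10k of C1q they were 0.22 for Ccl2 and 0.05 for Ccl7. Cxcl9, a ligand of CXCR3 on T cells, was at 308 and 238 CPM (-0.38, -0.46 to -0.29). In C1q-low phagocytes the ratios were 0.43 for Cxcl2, -0.11 for Ccl2 and -1.004 for Cxcl9.

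Ccl24 was at 87.7 CPM in UT versus 177 CPM in BUP-Gel, a log2 ratio of 1.01 (0.90 to 1.13), and at 0.95 in C1q-low phagocytes. Ccl5, a chemokine that T cells make in quantity, reached 73.6 and 175 CPM (1.25), compared with 699 and 1008 CPM in T cells, with 28.6% and 43.3% of its UMIs in 5 cells. Without cells that held a dendritic cell marker the ratio of Ccl5 was 0.60. Ccl4 was at 812 and 1181 CPM (0.54, 0.50 to 0.58).

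Inflammatory genes leaned to the higher side, with a median of 0.22 over 20 genes, 16 on the higher side and 2 past the fold. These were Inhba, at 22.1 CPM in UT versus 47.4 CPM in BUP-Gel (1.10, 0.88 to 1.33), and Ptgs2, the prostaglandin synthase COX-2, at 106 and 193 CPM (0.86, 0.76 to 0.97). Barcodes without Ptprc of 10000 UMIs or more held an Inhba UMI in 55.7% and 54.65% and a Ptgs2 UMI in 77.7% and 76.1%. Il1b was at 624 and 858 CPM (0.46, 0.41 to 0.51) and Thbs1, thrombospondin, at 266 and 392 CPM (0.56, 0.49 to 0.63). C1q-low phagocytes had a median of 0.17, so the list leaned the same way in both classes. The higher sums were not shared by all C1q ranges. From low to high the ratios were -0.15, 0.09, 1.72 and -0.01 for Inhba, -0.32, -0.18, 0.81 and -0.29 for Thbs1 and -0.57, 0.12, 0.61 and 0.52 for Il1b, so Inhba and Thbs1 were clearly higher only at 60 to 120 P10k. For Il1b the alternatives ranged from 0.02 with equal weight of cells to 0.59, and for Ptgs2 the ratio was 0.35 at equal depth.

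Monocyte genes had a median of 0.32 over 8 genes, with 2 past the fold. Plac8 was at 187 CPM in UT versus 288 CPM in BUP-Gel (0.63, 0.54 to 0.71) and Vcan at 87.9 and 136 CPM (0.63, 0.50 to 0.75). A UMI of Plac8 was seen in 35.9% and 39.6% of C1q macrophages and in 46.2% and 52.5% of T cells. Barcodes without Ptprc of 10000 UMIs or more held one in 83.65% and 89.2%, so Plac8 did not single out monocytes here. Ccr2 was at 169.9 and 208 CPM (0.29, 0.19 to 0.38), while Ly6c2, the classical monocyte surface protein, was at 63.6 and 49.7 CPM (-0.35, -0.54 to -0.17). In C1q-low phagocytes the list median was -0.22. With equal weight of cells the ratio of Vcan was 0.07. The UMIs of Ly6c2 may be shared with its near-identical neighbor Ly6c1.

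Arginine and polyamine genes lay on both sides, with a median of 0.10 over 11 genes and 6 of them above 0. Arg1, arginase 1, was at 1389 CPM in UT versus 938 CPM in BUP-Gel, a log2 ratio of -0.57 (-0.61 to -0.53) and between -0.80 and -0.58 in each of the C1q ranges. Over the class II ranges, from low to high, its ratios were less even, at -0.23, -0.78, -0.35 and -0.14. In UT it was at 1462 CPM in cells below 10 P10k of class II and at 608.5 CPM in cells at 150 P10k or more. Nos2, the inducible nitric oxide synthase, was sparse, at 23.4 and 13.6 CPM (-0.78, -1.13 to -0.44), in 7.54% and 6.36% of cells against 0.195% of T cells in UT. Arg2, the mitochondrial arginase, was on the higher side at 89.97 and 105 CPM (0.22, 0.09 to 0.36), and Nos2 was the only one of the 11 listed genes past the fold. In C1q-low phagocytes Arg1 was at -0.09 and Nos2 at 0.01.

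Hmox1, heme oxygenase 1, was at 608 CPM in UT versus 359 CPM in BUP-Gel, a log2 ratio of -0.76 (-0.82 to -0.69). Slc40a1, the iron exporter ferroportin, was at 17.3 and 6.97 CPM (-1.31, -1.80 to -0.85), with 56.3% and 60% of its UMIs in 5 cells. The ferritin chains Fth1 (-0.11) and Ftl1 (-0.17) differed little. Of 13 heme and iron genes 2 were lower and 2 higher by the fold, the latter Lcn2 (0.69), a siderophore binder, and Cp (1.09), ceruloplasmin. Both were also seen in the deep barcodes without Ptprc that were counted above for Inhba. Of these, 67.5% (UT) and 80.97% (BUP-Gel) held a Cp UMI and 32.4% and 37.85% an Lcn2 UMI. How far RNA of such cells set the ratios of Cp and Lcn2 was not tested.

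Plau was at 931 CPM in UT versus 502 CPM in BUP-Gel, a log2 ratio of -0.89 (-0.95 to -0.84), and its receptor Plaur at 429 and 502 CPM (0.23). In UT it was at 1334 CPM in cells below 10 P10k of class II and at 392 CPM in cells at 150 P10k or more, and in BUP-Gel at 714 and 388 CPM, so the libraries differed in cells low in class II and hardly in cells rich in it. Of 22 matrix and growth factor genes Plau was the only one lower by the fold. The 2 higher ones, Sparc (1.66) and Timp1 (0.63), had 73.3% and 64.5% of their BUP-Gel UMIs in 5 cells, and tumor and fibroblast markers were at 50.9 and 128 CPM.

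Interferon response genes were lower on balance. The type I list had a median of -0.26 over 27 genes, with Ifit3 at 29.9 CPM in UT versus 16.6 CPM in BUP-Gel (-0.85, -1.17 to -0.55) and Ifit2 at 52.5 and 30.2 CPM (-0.80, -1.03 to -0.57) past the fold. The interferon gamma list had a median of -0.21 over 22 genes, and all of these but Ciita were on the lower side, among them Gbp2 at 281 and 191 CPM (-0.56). C1q-low phagocytes had medians of -0.36 and -0.45. At 2000 UMIs a cell the medians in C1q macrophages were -0.09 and -0.12, beside -0.02 for all genes.

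Costimulatory and inhibitory ligands had a median of -0.02 over 14 genes. Cd86 was at 248 CPM in UT versus 326 CPM in BUP-Gel (0.39, 0.31 to 0.47), whereas Cd274, which encodes PD-L1, was at 248 and 245 CPM (-0.02, -0.10 to 0.07). Siglece, an inhibitory sialic acid receptor, was the only one past the fold, at 8.20 and 17.4 CPM (1.082). Glycolysis and hypoxia genes had a median of -0.14 over 24 genes with none past the fold, for example Pkm at 2039.9 and 1674 CPM (-0.29). Immediate early genes had a median of 0.13, with Nr4a1, at 69.6 and 125 CPM (0.84), Atf3 (0.59) and Hspa1a (0.65) past the fold.

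The macrophage core differed less. Of 14 genes only Cx3cr1 was past the fold, and the median was -0.08. Csf1r, the receptor for macrophage colony-stimulating factor, was at 529.7 CPM in UT versus 512 CPM in BUP-Gel (-0.05, -0.11 to 0.01) and Adgre1, which encodes F4/80, at 179 and 165 CPM (-0.12, -0.22 to -0.02). Adgre1 was at 0.13 with equal weight of cells. Cd68 was at 1065 and 827 CPM (-0.37). Of 18 cell cycle genes outside the rule 2 were lower by the fold, Cdk1 (-0.78) and Rrm2 (-0.77), and the median was -0.34.

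Among genes at 100 CPM or more in 1 library, Slpi (ENSMUSG00000017002, chromosome 2, 164195990 to 164231015), a secreted inhibitor of neutrophil elastase, had the largest ratio in the full sums, while at 2000 UMIs a cell its ratio of 1.13 was below those of Ccl5 (1.77), Tmem176b (1.46) and Gadd45b (1.165) and level with that of Plcb1. It was at 92.03 CPM in UT versus 285 CPM in BUP-Gel, a log2 ratio of 1.63 (1.53 to 1.73), in 22.2% and 28.2% of cells against 1.37% and 0.528% of T cells, and higher in each C1q range. C1q-low phagocytes held more of it, at 452 and 918 CPM (1.02). Tmem176b, a membrane protein of antigen-presenting cells, was at 34.7 and 105 CPM (1.59, 1.43 to 1.76), and a UMI of it was seen in 95.7% and 97.8% of barcodes without Ptprc that held 10000 UMIs or more. Plcb1 (1.002), a phospholipase, Malt1 (0.99), a paracaspase upstream of NF-kappaB, Gadd45b (0.96), a stress response gene, and Ifitm1 (0.87) followed, all also higher in BUP-Gel C1q-low phagocytes. Of the barcodes without Ptprc just named, 86.7% and 84.9% held a Plcb1 UMI and 81.97% and 88.5% an Ifitm1 UMI.

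On the lower side of the same genes the largest ratio outside granzyme and hemoglobin genes was that of Ly6a (ENSMUSG00000075602, chromosome 15, 74863840 to 74869880), which encodes Sca-1. It was at 456 CPM in UT versus 207 CPM in BUP-Gel, a log2 ratio of -1.14 (-1.22 to -1.05), and was lower in every C1q range and every class II range. C1q-low phagocytes (-0.96) and T cells (366 and 146 CPM) shared this direction. Pmp22, a membrane protein best known from myelin, was at 245 and 119 CPM (-1.04), Atp1b3, a sodium pump subunit, at 884 and 453 CPM (-0.97) and Ch25h at 259 and 135 CPM (-0.94). In C1q-low phagocytes these 3 stood at -0.37, -0.23 and -0.72. G0s2, an inhibitor of lipid breakdown, was at 142 and 74.99 CPM (-0.92).

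Granzyme transcripts, and in BUP-Gel hemoglobin transcripts, sat in few cells. Gzmg (-2.50), Gzmd (-1.74), Gzmf (-1.52) and Gzmc (-0.93), cytotoxic granule proteases, held 13185 UMIs in UT and 1866 in BUP-Gel together, with 80.6% and 86.7% of them in 5 C1q macrophages. Hbb-bs (-1.26), Hba-a1 (-1.06) and Hba-a2 (-1.13), chains of hemoglobin with near-identical copies, had 98.5%, 99.1% and 99.1% of their BUP-Gel UMIs in 5 cells. T cell markers were at 38.1 and 35.9 CPM, NK cell markers at 306 and 218 CPM, neutrophil markers at 801 and 912 CPM, osteoclast markers at 62.7 and 73.0 CPM, and mast and B cell markers at 17.3 and 15.7 CPM, and their part in the ratios was not tested beyond the following. In cells under 10 P10k of T, NK, dendritic, erythroid and tumor markers together (1026 UT and 457 BUP-Gel) the ratios of Gzmc, Gzmd, Gzmf, Hba-a1 and Hbb-bs turned positive and those of Gzmg and Hba-a2 were -0.58 and -0.38, while class II stood at 0.71, Mrc1 at -0.58 and Arg1 at -0.63.

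Variation among C1q macrophages was concentrated in few genes. After each cell was thinned to 2000 UMIs, the median variance over mean was 1.07 in UT and 1.09 in BUP-Gel over 3042 genes, where pure counting gives a ratio of 1, and 135 and 152 genes were above 2. Cd74 had a ratio of 19.0 and 17.1, Ccl8 of 15.3 and 19.1, Lyz2 of 15.9 and 14.8 and Apoe of 12.5 and 14.6. Cxcl3 (13.4 and 24.7) and Cxcl2 (11.3 and 13.5) were also spread, as were Gzmf (81.6 and 30.2) and Gzmc (11.6 and 13.4), whose UMIs lay in few cells, and Cmss1 and Cdk8. Cd74 and the chemokine genes Ccl8, Cxcl2 and Cxcl3 were thus among the genes of highest variance over mean. The measure depends on depth, and at 4000 UMIs a cell it was 36.9 and 33.75 for Cd74.

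Acetylcholine signaling between nerves and other cells is what the study set out to reach with the drug, and RNA of its genes was nearly absent in these cells. By flow cytometry the study reported the receptor proteins CHRM3, CHRM5 and CHRNA7 on macrophages of CT26 tumors. Protein was not measured here. The 26 listed receptors, enzymes and transporters summed to 5.10 CPM in UT and 5.27 CPM in BUP-Gel C1q macrophages, and 16 of them had no UMI in either library. None had enough UMIs for a ratio. A difference at such levels was not detectable at this depth.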

How the data were processed

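The authors deposited, for each library, a filtered matrix of raw UMI counts per gene and barcode, made from 10x Genomics 5′ libraries. The submitters' processing notes name Cell Ranger 8.0.1 and Seurat 5.0.1. No normalization had been applied to these deposited counts. Barcodes with over 20% mitochondrial UMIs were left out (393 UT, 445 BUP-Gel). The members and gene lists were chosen with earlier results of these data known. T cells held at least 3 Cd3 UMIs, at most 1 UMI of Cd14, Csf1r, Cd68 and Adgre1, and under 100 P10k of S100a8 and S100a9. C1q-low phagocytes were under 15 P10k of C1q and at 10 P10k or more of Cd14, Csf1r, Cd68 and Adgre1. Their other limits were those of the members, and they also held no UMI of Flt3, Xcr1 or Ccr7, a limit that members did not have. Counts were summed per class and library, and ratios were given with exact 95% conditional intervals of counting error, with no pseudocount. Ratios needed 200 UMIs over both libraries, and 1.5-fold was the mark between conditions. Named genes were those of the lists, the 12 largest ratios in each direction among genes with 100 CPM in 1 library that kept their sign at 2000 UMIs a cell, with median-ratio scaling and without the 5 cells of most UMIs of the gene, the 12 largest ratios over C1q-low phagocytes in the library where the ratio was smaller, and the 10 most variable genes. Scrublet's caller marked 0.0140% of UT barcodes, so it had not worked there, and 2.29% of BUP-Gel barcodes. No doublets were removed, and leaving out the 6% with the highest scores was an alternative. The steps were tested on simulated data (seed 1). Python 3.11.15, numpy 2.4.6, scipy 1.17.1, pandas 2.3.3, scanpy 1.11.5 and matplotlib 3.10.9 were used. Gene positions and windows before starts are from GRCm39. Alternatives were a stricter cell filter, other limits, equal depth, equal weight of cells, median-ratio scaling and other gene filters, and 4 alternatives were chosen after seeing the data.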

Additional observations from a re-analysis of the deposited data

Results flagged for a closer look

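Some genes past 1.5-fold in C1q macrophages lay on the other side of 0 in C1q-low phagocytes of the same libraries, 11 of 49 such listed genes of 326 tested. Among all 8456 genes, 159 were past the fold on the higher and 96 on the lower side. How many of those lay on the other side in C1q-low phagocytes was not counted, so the 11 cannot be set against a share of all genes. The gap (log2 ratio in C1q macrophages minus that in C1q-low phagocytes) was 0.92 for H2-Aa, 0.98 for H2-Ab1, 1.04 for H2-Eb1, 1.13 for H2-DMb1 and 0.78 for Cd74, with C1q-low ratios from -0.38 to -0.18. For Plac8 the gap was 0.84 and for Gpnmb 1.57, both lower in BUP-Gel C1q-low phagocytes. For Cd36 it was -1.05, with a C1q-low ratio of 0.19. The hemoglobin genes had gaps of -2.63 (Hba-a1), -2.58 (Hba-a2) and -2.31 (Hbb-bs), and their UMIs sat in few cells. With 1 library a condition the difference between the classes was not tested.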

How the results depend on the processing

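No paired analysis was possible because each condition had 1 library. The difference in the share of kept barcodes was -7.45 points with a C1q limit of 30 P10k and -7.11 points among barcodes with a Ptprc UMI, and the difference in cycling cells was -1.48 points with a limit of 20 P10k. The 159 higher and 96 lower genes were 29 and 37 at 2000 UMIs a cell, 176 and 245 with equal weight of cells, 42 and 26 with a minimum of 1000 UMIs and 537 and 306 with a minimum of 50. The class II ratio of 0.66 was 0.75 with the C1q limit of 30 P10k, 0.74 without the highest doublet scores, 0.68 with median-ratio scaling, 0.77 with equal weight, and, in alternatives chosen after seeing the data, 0.62 without dendritic cell marker UMIs and 0.71 in cells low in other lineages. Genes higher than in C1q-low phagocytes numbered 39 at equal depth. Genes with variance over mean above 2 numbered 250 and 318 at 4000 UMIs. Among T cells of 5000 UMIs or more, 0.295% in UT and 0 of 507 in BUP-Gel (up to 0.725%) reached the C1q limit. Ratios turned to 0.22 for Lyve1 at equal depth, and to 0.67 (Gzmc), 0.23 (Gzmd), 0.089 (Gzmf), 0.30 (Hba-a1) and 0.16 (Hbb-bs) in cells low in other lineages. Of values for 82 single genes and list sums, 568 moved by less than counting error, 246 moved by more and 6 turned. The causes were not tested. Sparse genes were limited by depth, and 1 library a condition limits every comparison.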
